A study of Caenorhabditis elegans with 4 samples.

Results

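The fbxa genes are a large family of Caenorhabditis elegans genes for F-box proteins, and they were examined here for summits of EGL-27 binding. The members were chosen by name, as every nuclear protein-coding gene of the WBcel235 annotation whose name starts with fbxa-, and they are 170 of 19973 such genes. The family and the measures below were put forward with summit positions and ranks in these same peak lists already known. All values are therefore given as a description, and no test was run on them.

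EGL-27 was mapped by ChIP-seq, in which DNA bound to an immunoprecipitated protein is sequenced, in whole third-stage (L3) larvae. Per the labels, the 4 samples are biological replicates of 1 group, of strain OP177 with the genotype unc-119(ed3) III; wgIs177. The line carries EGL-27 with a GFP-FLAG tag at its C terminus as a stable transgene, the larvae were of both sexes pooled, their age is listed as unknown, and chromatin was sheared by sonication. Every sample thus carries both the unc-119 allele and the tagged transgene. All 4 replicates were compared with 1 shared control, and no second condition was compared. With 4 replicates the smallest two-sided exact p of a sign test would be 0.125.

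F-box proteins are the substrate adaptors of SCF ubiquitin ligases. The F-box holds the adaptor to a Skp1-like protein, an SKR protein in C. elegans, and through it to the cullin CUL-1, while the rest of the adaptor binds the protein to be ubiquitylated. The fbxa family has expanded in nematodes, and FBXA-158 and FBXA-75 are known as partners of the cullin CUL-6 in the response to intracellular pathogens. EGL-27 resembles the MTA subunits of the NuRD chromatin remodelling complex and has a zinc finger of the GATA type. Single roles of the other fbxa genes are not given here.

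The sequences around 5 fbxa summits are printed as examples from the stronger end of the family. These summits ranked 830 to 3723 in the pooled list, where the median rank of the members' window summits was 11875. The first 4 lie in intergenic DNA before the gene and belong to members among the strongest in the pooled list, and the last lies in an intron of a member whose summit was strong in 1 replicate. Each run has 101 bases centred on the pooled summit, read 5′ to 3′ on the strand of the gene, from the RefSeq WBcel235 assembly (the same assembly as ce11). Capitals mark words of the GATA kind on either strand, which are AGATAA as well as AGATAG, and TGATAA as well as TGATAG.
fbxa-72, chrV:676887-676987, minus strand: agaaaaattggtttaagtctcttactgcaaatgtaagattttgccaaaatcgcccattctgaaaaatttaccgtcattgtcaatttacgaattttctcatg
fbxa-108, chrV:17659431-17659531, minus strand: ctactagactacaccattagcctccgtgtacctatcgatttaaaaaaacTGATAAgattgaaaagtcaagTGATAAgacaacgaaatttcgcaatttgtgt
fbxa-24, chrII:3815935-3816035, plus strand: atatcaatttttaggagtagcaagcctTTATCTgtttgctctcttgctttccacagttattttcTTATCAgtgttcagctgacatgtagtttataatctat
fbxa-134, chrV:17352991-17353091, minus strand: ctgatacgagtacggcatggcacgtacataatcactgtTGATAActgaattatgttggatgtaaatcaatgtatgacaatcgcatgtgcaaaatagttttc
fbxa-54, chrIII:956651-956751, plus strand: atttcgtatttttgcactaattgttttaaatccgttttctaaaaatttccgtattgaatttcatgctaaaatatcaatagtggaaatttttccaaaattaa

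The fbxa genes lay near the chromosome ends. On the arms, taken as the outer 33.3% of each chromosome on either side, were 166 of 170 members (97.6%), against 87.7% of the other genes in the same megabases and 62.2% of all genes. The 4 members outside the arms were fbxa-145, fbxa-105 and fbxa-181, which sat close to an arm border, and fbxa-224, at 49.4% of the length of chromosome II. Chromosome V held 71 members and chromosome III held 60, followed by 14 each on II and X, 6 on I and 5 on IV. The members filled 39 bins of 1 Mb, and the densest was the second megabase of chromosome III, with 29. These 39 bins held 7699 other protein-coding genes, which serve below as the neighbours. The shares of neighbours with a summit were weighted so that each bin counts by its number of fbxa genes. Summits per kb, shares of summits, and medians of body length, GC content and rank were taken over the neighbours without weights.

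No fbxa gene had a summit of the final list, the IDR list. The authors made that list by the irreproducible discovery rate, a measure of how well peak ranks recur between lists. The promoter window covered the 1000 bp before the 5′ end and the first 200 bp of the gene. Of 170 members 0 had an IDR summit there, against 2.90% of the neighbours and 2.56% of all genes. For a count of 0 of 170 the exact (Clopper-Pearson) 95% interval reaches 2.15%. A rougher limit, set at 3 counts, would be 1.76%. In the gene body 0 members again had an IDR summit, against 0.731% of the neighbours and 0.916% of all genes. The members nearest to an IDR summit were fbxa-145 on chromosome I, at 3149 bp from its 5′ end, and fbxa-30 on III, at 3739 bp. The median distance was 86632 bp for the members and 65931 bp for the neighbours. Intervals cover counting error only, and members that share a summit are not independent.

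In the longer pooled list, called on all replicates together, 38 members (22.4%) had a summit in the promoter window. The exact 95% interval of that share was 16.3% to 29.4%, while 34.2% of the neighbours and 37.5% of all genes had one. The interval covers counting error over members that are not independent, and it is not a test against the neighbours. The larvae were whole, so a site bound in few cells and a site bound weakly in many cannot be told apart. The pooled and replicate lists hold background as well as peaks, so a summit in them is not in itself a bound site. The 38 members were spread as 18 on III, 16 on V and 1 each on I, II, IV and X.

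The difference was smaller in the single replicates. In replicate 1, 46 members (27.1%) had a window summit, against 33.4% of the neighbours and 37.9% of all genes. In replicate 2 there were 10 members (5.88%), against 9.19% of the neighbours and 10.3% of all genes. Replicate 3 had 37 (21.8%), beside 23.2% of the neighbours and 26.7% of all genes, and replicate 4 had 27 (15.9%), beside 16.7% and 19.6%. The family was below its neighbours in 4 of 4 replicates. The mean share was 17.6% ± 9.08 (SD, n = 4) for the members and 20.6% ± 10.3 for the neighbours, and the difference was -2.97 ± 2.48 percentage points. That difference is close to its spread between replicates, and it changed sign when the neighbours were limited to the 2 nearest genes on each side (0.280 percentage points). The lists held 30000, 6602, 19304 and 12990 peaks in replicates 1 to 4, and the order of the members' shares followed the order of those lengths. The sources used here do not give the sequencing depth.

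**Figure D1:**
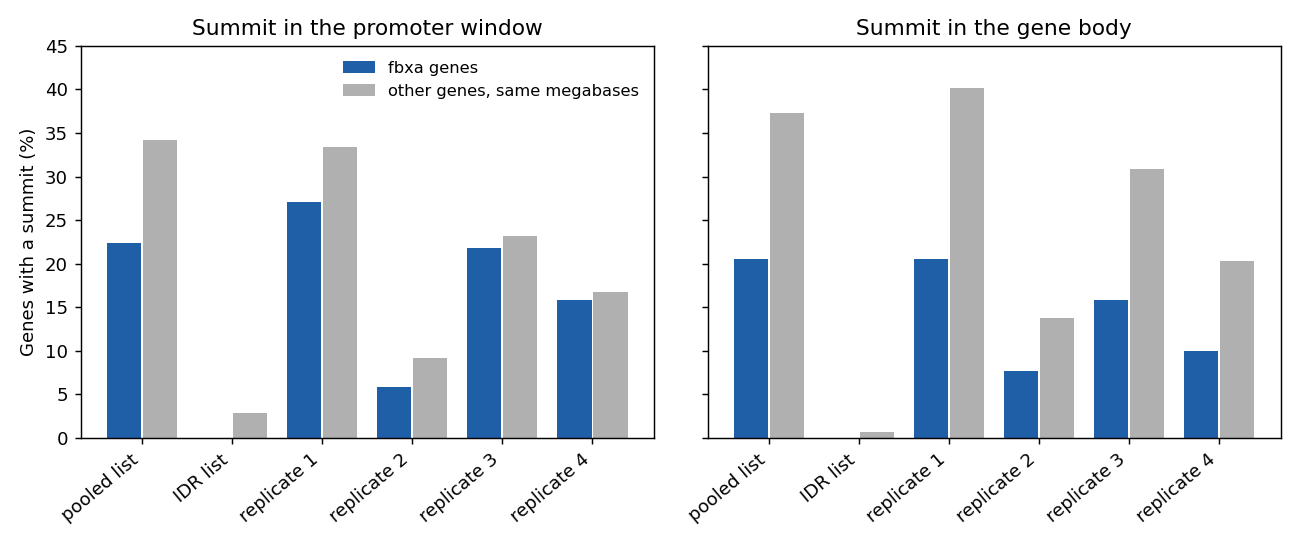
Percent of the 170 fbxa genes (blue) and of the other protein-coding genes of the same megabases (grey) with a summit in the promoter window (left) or the gene body (right), in each of 6 peak lists. The blue bars are lower throughout, with 0 members in the IDR list, and the difference is larger in the body than in the window in every replicate.

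The bodies of the fbxa genes stood further below their neighbours than the promoter windows did in every replicate. The body was taken from past the first 200 bp to the 3′ end, so it shares no base with the gene's own window. In the pooled list 35 members (20.6%) had a body summit, against 37.3% of the neighbours and 39.2% of all genes. Replicate 1 had 35 members (20.6%), beside 40.2% of the neighbours and 42.5% of all genes. Replicate 2 had 13 (7.65%), beside 13.75% of the neighbours and 13.7% of all genes. Replicate 3 had 27 (15.9%), beside 30.9% of the neighbours and 31.9% of all genes, and replicate 4 had 17 (10%), beside 20.3% and 22.5%. The mean difference was -12.8 ± 5.85 percentage points (SD, n = 4) and ranged from -19.6 to -6.11, so it was larger than its spread and of 1 sign in 4 of 4 replicates.

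The median body was 1512 bp in the family and 1699 bp in the neighbours. A median does not show the longest bodies, and a longer body has more room for a summit. The part of body length in the differences of shares was not tested. In 138 members at least 90% of the 50-base words of the body occur once in the genome, and 23.2% of these had a pooled body summit. The neighbours' bodies were not limited in this way, and the part of repeated sequence in the body difference was not tested. Per kb of body, the pooled list held 0.114 summits in the members and 0.233 in the neighbours. In replicates 1, 3 and 4 the members had 0.127, 0.0921 and 0.0540 summits per kb, and the neighbours 0.253, 0.164 and 0.100. Replicate 2 had the closest values, 0.0445 and 0.0522. Of the 36 pooled body summits, 23 were in exons and 13 in introns. Exons made up 59.1% of the members' bodies, and they held 63.9% of the summits. Exons and introns of the family were both low, at 0.124 and 0.101 summits per kb, where those of the neighbours had 0.232 and 0.234.

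Around the 5′ end the summits of the family showed no sharp crest. In the 200 bp just upstream the members had 5.29 pooled summits per 100 genes and the neighbours 10.6. In the next 200 bp upstream the values were 5.88 and 7.25, and in the first 200 bp of the gene 5.29 and 5.89. Further in, from 200 to 400 bp, the members had 4.71 and the neighbours 4.05. From 400 to 600 bp the values were 1.18, which rests on 2 summits, and 4.21, and from 1000 to 1200 bp they were 4.12 and 4.66. The peak of the neighbours directly before the gene was thus not matched in the family, whose counts per step are small (9 summits in that step). The part of sequence uniqueness in this profile was not tested.

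**Figure D2:**
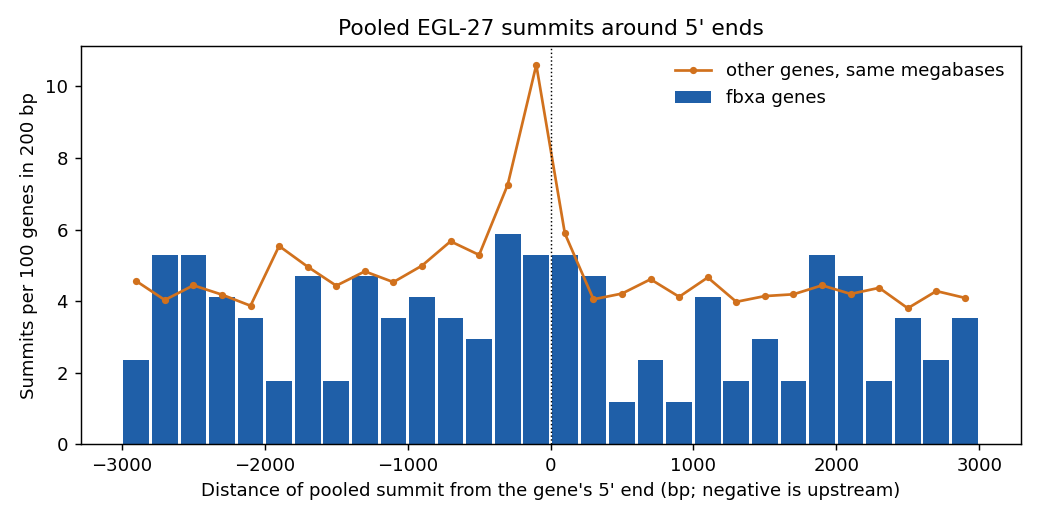
Pooled EGL-27 summits per 100 genes in steps of 200 bp over 3000 bp on each side of the 5′ end, for fbxa genes (bars) and for the other genes of the same megabases (line). The line peaks at 10.6 just upstream of the 5′ end, where the bar stands at 5.29.

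Few members had a window summit in more than 1 replicate. In no replicate was there one for 83 members (48.8%), against 48.2% of the neighbours and 42.6% of all genes. In 1 replicate there was one for 61 members (35.9%), against 30.99% of the neighbours and 32.2% of all genes. In 2 replicates there was one for 20 (11.8%), against 13.0% and 15.7%. In 3 there was one for 5 (2.94%), against 5.64% and 6.84%. Those 5 were fbxa-24, fbxa-50, fbxa-66, fbxa-72 and fbxa-190. A single member, fbxa-108, had one in all 4 replicates (0.588%), against 2.12% of the neighbours and 2.60% of all genes. Counting every list, 88 members (51.8%) had a window summit somewhere, against 56.2% of the neighbours and 60.8% of all genes. For 50 members (29.4%) it was in replicate lists only, against 22.1% of the neighbours and 23.3% of all genes. For 45 members (26.5%) no list held a summit in window or body, against 21.4% of the neighbours and 17.7% of all genes. Some of the 45 have repeated sequence. At fbxa-208 and both genes named fbxa-41, 0% of the window's 50-base words occur once in the genome, and at fbxa-78 4.50%. Others, such as fbxa-125, have 100%. The part of repeated sequence in this count was not tested.

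fbxa-108 (WBGene00010293, V:17656890-17659385, minus strand) was the member seen most often. Its pooled peak at V:17659296-17659665 ranked 2254 of 28056, with the summit 96 bp before the 5′ end. Within 200 bp of that summit lay summits of replicates 2, 3 and 4, ranked 4614, 432 and 9486 in their lists. Replicate 1 had its own summit, ranked 1142, at 307 bp upstream. The site thus stood near the top of the list in replicate 3 and in the lower part of the lists in replicates 2 and 4, which held 6602 and 12990 peaks. The 101 bases printed above hold TGATAA at 2 places.

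fbxa-72 (WBGene00017962, V:674886-676753, minus strand) had the strongest pooled window summit of the family, with rank 830, just past the length of the IDR list. The summit lay 184 bp upstream, but the 5′ end of srx-21, a gene of a chemoreceptor family, was nearer at 97 bp. Replicates 1, 3 and 4 had a summit within 200 bp, ranked 1143, 1060 and 3485, and replicate 2 had none. For fbxa-24 (WBGene00018803, II:3816526-3818238, plus strand) the pooled summit ranked 3206, at 541 bp upstream. Its replicate 2 summit ranked 765 and that of replicate 4 ranked 1969, while that of replicate 3 ranked 18769 and replicate 1 had none. The replicates therefore placed the same position near the top or near the bottom of their lists.

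Some of the leading windows lay closer to another gene. The pooled summit of fbxa-90 (rank 1748, 994 bp upstream) was 145 bp from the 5′ end of efl-1, an E2F-family transcription factor gene. The summit assigned to fbxa-190 (rank 4223, 906 bp upstream) was 320 bp from F56C3.7. The one assigned to fbxa-95 (rank 5587, 863 bp upstream) lay in a coding exon of lsm-5, an Sm-like protein gene, 233 bp from its 5′ end. Of the 38 members with a pooled window summit, 27 had their own 5′ end as the nearest, and for 8 the nearest belonged to a gene outside the family. The windows of 47 members held the 5′ end of another gene, a count that was not made for the neighbours or for all genes. At the upstream edge of the window, the last pooled summits inside were those of fbxa-190 (906 bp), fbxa-134 (a second one, 936 bp, rank 16188) and fbxa-90 (994 bp). The first outside were those of fbxa-42 (1009 bp, rank 22547), fbxa-103 (1038 bp, rank 23298) and fbxa-131 (1040 bp, rank 22869). Neighbouring members also shared summits, as fbxa-56 with fbxa-22 (rank 9580), fbxa-67 with fbxa-11 (18406) and fbxa-48 with fbxa-39 (21559).

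In the other leading windows the nearest 5′ end was that of the fbxa gene itself. Each of these pooled summits had a summit within 200 bp in 1 or 2 replicates. fbxa-134 (rank 2530, 171 bp upstream) had a summit within 200 bp in replicate 3 only, ranked 926. On chromosome III, fbxa-50 (rank 3662, 808 bp upstream) and fbxa-37 (rank 4274, 103 bp upstream) adjoin each other. The former had nearby summits ranked 14332 in replicate 1 and 13787 in replicate 3, and the latter one ranked 3549 in replicate 3. Replicate 2 also had a summit in the window of fbxa-50, ranked 3982, but at another place, 48 bp inside the gene. The summit of fbxa-155 (rank 5070) lay in its own intron, 117 bp inside the gene, and had 1 partner in replicate 1, ranked 5590. fbxa-35 (rank 5287, 297 bp upstream) had 1 in replicate 3, ranked 1218, and an antisense RNA gene, anr-53, lies within 200 bp. fbxa-136 (rank 6212) had summits ranked 27992 in replicate 1 and 2624 in replicate 3. fbxa-15 (rank 6910) had summits ranked 16524 in replicate 1 and 1380 in replicate 2, and fbxa-219 (rank 7076) had 1 in replicate 1, ranked 2988. None of these 8 was marked at the same place in more than 2 replicates.

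**Figure D3:**
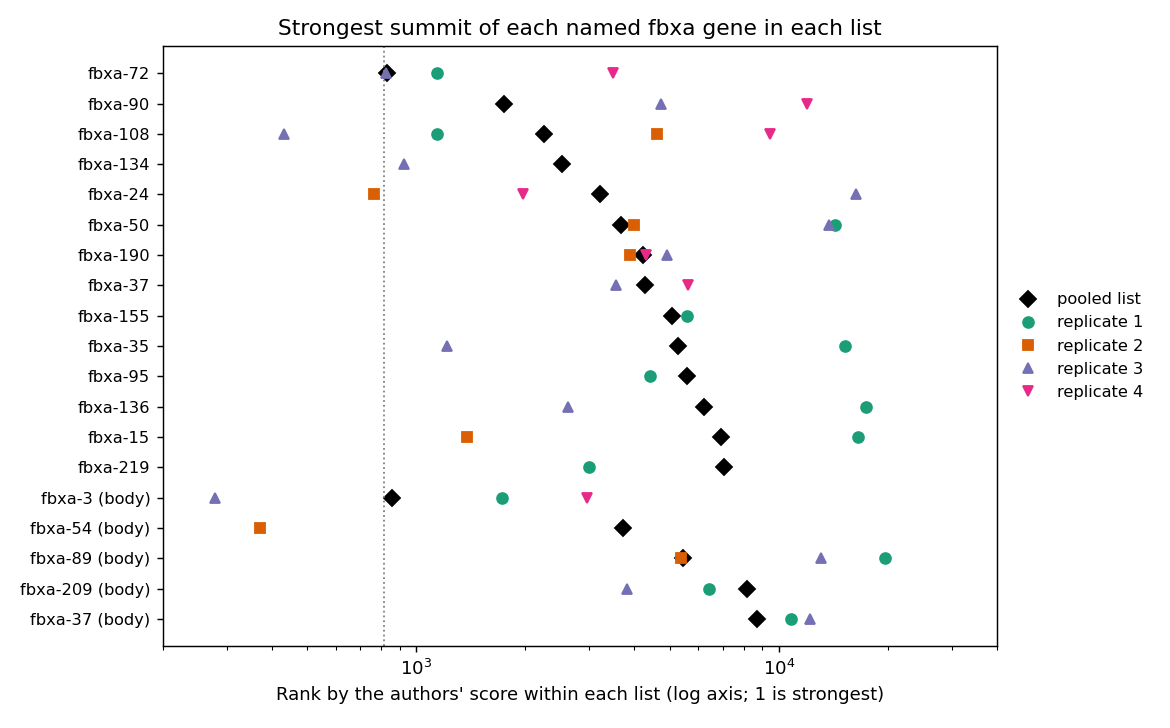
Rank within each list (log axis, 1 is strongest) of the strongest summit in the window of the 14 leading fbxa genes and in the body of the 5 leading ones, for the pooled list and replicates 1 to 4. The dotted line marks a rank equal to the length of the IDR list. No pooled value lies left of it, and 4 replicate values do, those of fbxa-24, fbxa-54, fbxa-108 and fbxa-3.

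In the body, fbxa-3 (WBGene00020363, II:1818889-1820874, minus strand) led with rank 857. Its peak at II:1819970-1820339 has the summit in the 5′ UTR of fbxa-3, and 324 bp from the 5′ end of fbxc-19, another F-box gene. Replicates 1, 3 and 4 had summits within 200 bp, ranked 1728, 279 and 2967, and replicate 2 had none. A long intergenic RNA gene, linc-16, also lies within 200 bp. The next member, fbxa-54 (rank 3723), had its intronic summit in replicate 2 alone, ranked 371. fbxa-89 (rank 5444) had an intronic summit seen in replicates 1 and 2, and fbxa-209 (rank 8182) one in its 5′ UTR, 33 bp from the 5′ end of Y36E3A.2 and seen in replicates 1 and 3. The fifth was fbxa-37 (rank 8716), in a coding exon, with a partner in replicate 1. Of the 2 CUL-6 partners, FBXA-158's gene had a body summit in replicate 4 alone (rank 10597), and fbxa-75 a pooled body summit at rank 26477 alone.

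Where fbxa genes had a window summit, its rank in the pooled list was not low. The median of 43 such summits was rank 11875, 42.3% of the way down the list, and that of the neighbours' summits 45.5%. Of these 43 summits, 0 ranked within the length of the IDR list, while 120 of the neighbours' 2560 did. Pooled body summits had a median at 73.8% of the list against 57.0%. In replicates 1 to 4 the body medians of the members stood at 65.8%, 43.5%, 60.1% and 65.9%, and those of the neighbours at 53.8%, 53.5%, 54.9% and 54.2%, so replicate 2 went the other way. In the replicates the window medians stood at 52.9%, 60.3%, 36.9% and 73.5% of the lists, and those of the neighbours between 45% and 48.7%. In the window the family's summits thus ranked higher than those of the neighbours in replicate 3 and lower in replicates 1, 2 and 4.

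Replicate support at the pooled summits was close to that of the neighbours for the lower counts. Of the 43 window summits, 6 had no replicate summit within 200 bp (13.95%, neighbours 15.9%), 24 had 1 (55.8%, neighbours 47.8%) and 10 had 2 (23.3%, neighbours 24.2%). Only 3 had 3 replicates (6.98%, neighbours 9.34%) and 0 had all 4 (neighbours 2.77%). These 3 were the summits of fbxa-72, fbxa-108 and fbxa-24. Members seen in replicate lists only included fbxa-14 (replicate 4, rank 1685), fbxa-74 (replicate 2, rank 2746) and fbxa-150 (replicate 3, rank 3810).

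The difference from the neighbours varied by location. The following groups were set after the positions were seen. In the first 3 Mb of chromosome III, 16 of 55 members (29.1%) had a pooled window summit against 44.2% of their neighbours, and 13 (23.6%) had a body summit against 49.8%. Between 15 and 19 Mb of chromosome V, 13 of 51 members (25.5%) had a window summit and 25.4% of their neighbours did. In the body the values there were 17.6% and 24.1%. Among the 64 members elsewhere, 9 (14.1%) had a window summit against 32.6% of the neighbours, and 13 (20.3%) a body summit against 37.0%. In the pooled list the window shares of the family and its neighbours were thus close at 15 to 19 Mb of chromosome V and apart in the other places. In the single replicates the window differences were smaller on chromosome III, at -4.29, -3.17, 1.73 and -2.12 percentage points in replicates 1 to 4, so the family was above its neighbours in replicate 3. At 15 to 19 Mb of V they were 0.273, -2.49, 3.96 and 1.34, and elsewhere -13.4, -4.08, -8.38 and -1.42. The body differences were negative in every replicate on III, from -31.8 to -11.2, and elsewhere, from -20.6 to -3.63. At 15 to 19 Mb of V they were negative in replicates 1, 2 and 4 and 2.55 in replicate 3.

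**Figure D4:**
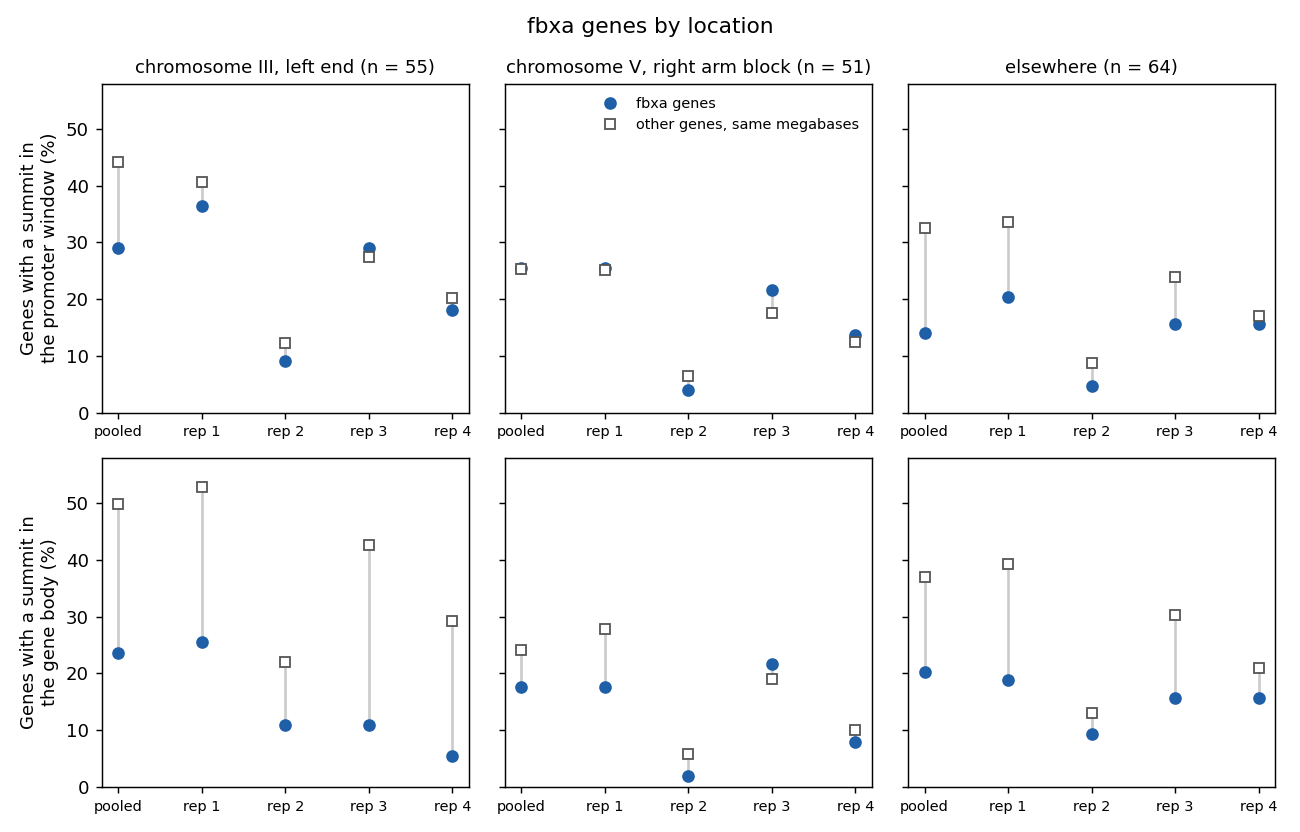
Percent of fbxa genes (filled circles) and of the other genes of the same megabases (open squares) with a summit in the promoter window (top) or body (bottom), in the pooled list and replicates 1 to 4, for the first 3 Mb of chromosome III, for 15 to 19 Mb of chromosome V and for all other places. The body values of chromosome III stand furthest apart, at 23.6% and 49.8% in the pooled list, and the pooled window values at 15 to 19 Mb of chromosome V overlap, at 25.5% and 25.4%.

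Pooled window summits were less frequent where the sequence was repeated, in the family and in the neighbours alike. A window was called unique where at least 90% of its 50-base words occur once in the genome, and 136 members (80.0%) and 87.8% of the neighbours had such a window. Among those 136, 34 (25%) had a pooled window summit, and among the 34 others 4 (11.8%) did. The neighbours, here without weights, had 35.8% with unique windows and 13.2% without. In replicates 1, 3 and 4 the members' shares were also higher with unique windows, while in replicate 2 both were 5.88%. With both sides limited to unique windows the pooled difference was -11.9 percentage points, and with the members alone limited -9.34, against -11.8 for all. The mean difference over replicates went from -2.97 to -1.89 with both sides limited, an alternative chosen after seeing the data, and to -0.394 with the members alone limited. The median GC content of the windows was 34.1% in the family and 35.1% in the neighbours. The part of GC content in the result was not tested.

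The GATA words marked above stood within 50 bp of 16 of the 43 pooled window summits (37.2%). The share was 23.5% over the 2560 summits of the neighbours and 23.5% over all 7655 window summits of protein-coding genes. GAGAGAG was found at 0 of the 43, against 4.73% of the neighbours' summits, and CACGTG at 1, against 2.62%. Both strands were searched, and the 3 kinds of word share no match. A match is a description of the sequence and not a site.

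Among related families, and beside 37.5% of all genes, the pooled window share varied. Of 104 fbxb genes, also for F-box proteins, 19 (18.3%) had a pooled window summit, and of 48 fbxc genes 11 (22.9%) did. Each had 1 gene with an IDR summit in the window, fbxb-85 (rank 454) and fbxc-29 (rank 214). These are 0.962% and 2.08% of their families, beside 2.56% of all genes. The MATH-domain family math had 8 of 37 (21.6%) with a pooled window summit and, like fbxa, 0 with an IDR summit there. The BTB and MATH adaptor family bath had 13 of 36 (36.1%), with IDR summits at bath-36 and bath-42 (5.56%). In a list of 28 genes of the SCF ligase itself, its SKR proteins included, 13 (46.4%) had a pooled window summit. An IDR summit was found for 1 of them (3.57%), lin-23, which encodes an F-box adaptor. In the pooled list the fbxa share of 22.4% thus lay near those of fbxb, fbxc and math, and below those of bath and the ligase list. Over the 4 replicates the mean window share was 17.6% ± 9.08 (SD) for fbxa, 11.5% ± 8.42 for fbxb, 9.90% ± 6.88 for fbxc and 13.5% ± 9.10 for math. It was 19.4% ± 9.62 for bath and 30.4% ± 12.5 for the ligase list. By replicate means fbxa therefore lay above fbxb, fbxc and math, and it was above each of these in every replicate. It was close to bath, below it in replicates 1, 2 and 4 and above it in replicate 3. The SDs are those of each family's share over lists of unlike length, and not of the differences between families. In the gene body, a low pooled share was not particular to fbxa, which had 20.6% beside 39.2% of all genes. A pooled body summit was found for 17 of 104 fbxb genes (16.35%), 8 of 48 fbxc genes (16.67%) and 5 of 37 math genes (13.51%). These 3 shares lay below that of fbxa, while those of bath (9 of 36) and the ligase list (7 of 28) lay above it. For the other families the body shares are given in the pooled list alone. The differences between families were not tested.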

How the data were processed

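The deposited values are peak lists on build ce11. By the README texts deposited with them, peaks together with background were called for every replicate against 1 shared control. The pooled list was called on the 4 replicates together, and the final list was made by IDR. The sources used here do not give the aligner, the caller, its filters or the threshold of IDR. The authors' score of each peak (signal value) has a scale that these sources do not give, and it was used for ranks inside each list alone. The −log10 q-value deposited with each peak entered no result, and no p-value is given in the lists. The depth is unknown. The lists held 28056 (pooled), 802 (IDR, nuclear chromosomes) and 6602 to 30000 (replicates) peaks. The lists on the build ce10 were not used here.

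Gene models came from the Ensembl 115 annotation of WBcel235, and sequences from the RefSeq WBcel235 assembly. Summits were counted in the window (1000 bp before the 5′ end plus the first 200 bp of the gene) and in the rest of the gene with Python 3.11.15, numpy 2.4.6 and scipy 1.17.1. Neighbours were the other protein-coding genes of the same 1 Mb bins, and their shares with a summit were weighted by the number of members in each. Without weights the pooled shares of the neighbours were 33.1% in the window and 35.4% in the body. A replicate summit within 200 bp of a pooled summit was counted as the same place. The counting was tested on simulated summits at known distances. Genes were named by rule: members with an IDR summit, the 14 best pooled windows, the 5 best bodies, and members seen in all 4 replicates. fbxa-66, the members in replicate lists only, the CUL-6 partners, the members outside the arms, at the window edge or nearest to an IDR summit, the pairs that share a summit and the genes of related families were named after their values were seen. The members named for their share of words that occur once were also picked after their values were seen. The members and lists were chosen with earlier results of these data known. Alternatives were other windows, shorter lists, other neighbours, unique windows, other arm limits and leaving out each replicate.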

Additional observations from a re-analysis of the deposited data

How the results depend on the processing

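The share of fbxa genes with a pooled window summit was 35.3% with 2000 bp upstream and 7.06% with the strongest 6602 peaks. The replicate mean was 7.21% with the strongest 6602 peaks of each list and 0.294% with as many peaks as the IDR list has, and 14.5% to 21.6% when 1 replicate was left out. The difference from the neighbours in the replicate mean was -0.394 percentage points for members with unique windows and 0.280 against the 2 nearest genes on each side. It was -3.68 to -1.85 when 1 replicate was left out, the last of these without replicate 1. With unique windows on both sides, chosen after seeing the data, it was -1.89. The share of members on arms was 85.9% with the outer 25% on each side and 99.4% with the outer 40% on each side. The pooled window difference stayed negative under 12 alternatives, from -13.9 to -5.20, the pooled body difference under 4, from -17.4 to -10.7, and the IDR count was 0 under 4. The cause of the changes was not tested, except that shorter lists hold fewer summits. The unknown depth limits how far a missing summit can be read. No paired comparison of conditions was possible because the study has 1 group.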
